A study of Mus musculus with 4 samples.

Results

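The genes described here are the apoptosis regulators and caspases on gene expression arrays of adult mouse brain after early postnatal ethanol. They were selected by gene symbol. The selection takes probe sets of the array annotation that name 1 gene among the numbered caspases, the genes whose symbols begin with Bcl2, Birc1 to Birc7, and a list of pro-apoptotic, mitochondrial, death receptor and p53 genes. It finds 46 of 35556 probe sets, which stand for 43 of the 19946 genes that a probe set names alone. Cycs has 3 probe sets and Birc2 has 2. Bax and Trp53 have no probe set here that names them alone and were not analysed here.

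Whole-brain RNA of C57BL/6J males was hybridized to 4 Affymetrix Mouse Gene 1.0 ST arrays, each carrying a pool of 3 males from separate litters. Ethanol-exposed pups were given 20% ethanol in 0.15 M saline under the skin on postnatal days 4 and 7, as 2 doses of 2.5 g/kg per day, 2 hours apart, and control pups were given the saline alone. Per the labels, pups were weaned at day 25 and brains were taken at day 60, whereas the study's methods give other days. The arrays are called control 1, control 3, ethanol 2 and ethanol 4 after their titles, and the groups follow title and source name. The separate treatment entry of the labels puts control 1 with the ethanol group and ethanol 4 with the controls, so each result below rests on the titles being right.

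Apoptosis is the ordered self-destruction of a cell. In the intrinsic pathway, BH3-only proteins free the effectors Bax and Bak1 from anti-apoptotic Bcl2 proteins, the mitochondrial outer membrane becomes leaky, and the cytochrome c that escapes assembles with Apaf1 to activate the initiator Casp9. In the extrinsic pathway, a death receptor such as Fas recruits Fadd and Casp8. Initiators cleave executioner caspases, and inhibitor of apoptosis proteins hold caspases in check. Ethanol given to rodents in the period of synapse formation is known to trigger neuronal apoptosis within hours. The arrays here sample the adult brain, weeks after the injections.

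The values are log2 signals of each probe set, and a difference is the mean of the ethanol arrays minus that of the control arrays. Array medians over all probe sets ran from 6.33 to 6.61 and were lower on both ethanol arrays, so the median difference of all probe sets was -0.15 as deposited. For this reason every difference is given as deposited and again after the 4 arrays were brought to equal quantiles, which moved the median of all probe sets to 0.00 (-0.0042). The study's limits were a change of at least 1.2-fold together with an unadjusted p below 0.05, here from limma's moderated test (two-sided, n = 2 arrays per group). The pituitary transcripts Gh, Prl and Cga were much lower on ethanol 2 than on the other 3 arrays, with a signal of 6.53 for Gh against 12.19 to 12.26. All values are from whole tissue, in which fewer cells of a type and less RNA per cell cannot be told apart.

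Few apoptosis genes differed between ethanol-exposed and control brains, and which ones did depended on the normalization. As deposited, Bcl2a1c, Fadd, Bcl2l2, Endog and Casp4 passed the limits with lower signal on the ethanol arrays, and no member was higher. After quantile normalization Casp9, Hrk, Diablo and Casp6 were past the limits and higher, and Bcl2a1c was the only member still past them and lower. These 9 genes are an anti-apoptotic pair (Bcl2a1c, Bcl2l2), a death receptor adaptor, a mitochondrial nuclease, an inflammatory caspase, an initiator and an executioner caspase, a neuronal BH3-only gene and an antagonist of the caspase inhibitors. The other 37 member probe sets were past the limits in neither form of the data.

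The 5 lower members make up 10.9% of the 46, where the limits called 17.9% of all 35556 probe sets lower. The count of 0 higher members stands beside 2.23% of all probe sets. After quantile normalization the 4 higher members make up 8.70%, where the limits called 5.71% of all probe sets higher, and the 1 lower member stands beside 5.87%. Among the 21797 probe sets that name 1 gene these background shares were 16.0% lower and 0.546% higher as deposited, and 3.43% lower and 3.65% higher after normalization. At an unadjusted p of 0.05 from limma alone, 5 members passed in each form, the same ones as under the limits. Of all 35556 probe sets, 7876 passed it as deposited and 4845 after normalization. No member passed an adjusted p of 0.05 in limma, which 0.00281% of all probe sets passed as deposited and 0.00562% after normalization. The smallest adjusted p of a member was 0.165 as deposited and 0.298 after normalization. No member reached 1.5-fold in either form. Few of the 21797 probe sets that name 1 gene did so, 169 as deposited and 84 after normalization. Over all 35556 probe sets the counts were 2190 and 1694. With the arrays grouped by the treatment entry of the labels, 0 members were past the limits in either direction, and 0.686% of all probe sets were lower and 0.917% higher.

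**Figure D1:**
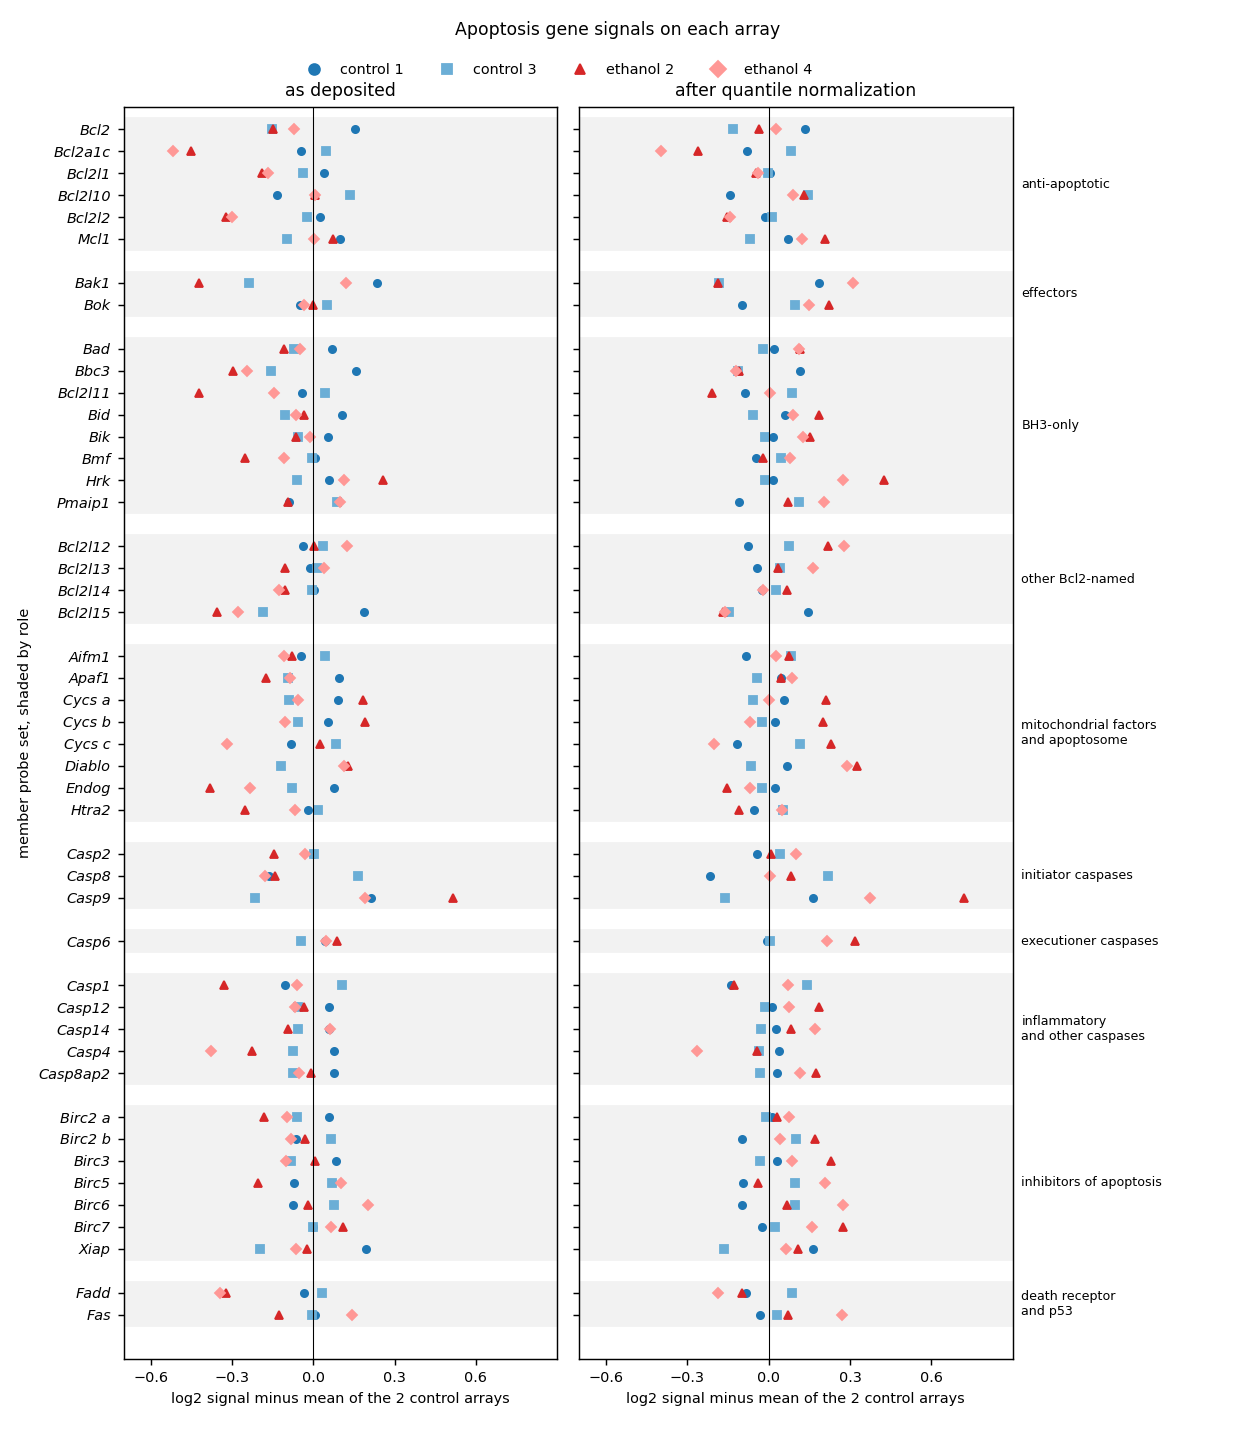
Log2 signal of each of the 46 member probe sets on the 4 arrays, with the mean of the 2 control arrays subtracted, as deposited (left) and after quantile normalization (right). Blue circles and squares are control 1 and control 3, red triangles and pink diamonds are ethanol 2 and ethanol 4, and grey bands group the members by role; the 3 Cycs and 2 Birc2 probe sets carry the letters a to c in the order of their probe numbers. Most red and pink symbols lie left of the line as deposited (33 of 46 differences below 0) and right of it after normalization (34 of 46 above 0).

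Bcl2a1c, a copy of the anti-apoptotic A1 gene best known from blood cells, had signals of 5.43 and 5.52 on control 1 and control 3, and of 5.03 and 4.96 on ethanol 2 and ethanol 4. The groups did not overlap, and the gap between them was several times that within either group (0.09 among controls, 0.07 among ethanol arrays). The difference was -0.49 (standard error 0.09, 1.40-fold lower, adjusted p = 0.165 from limma). After quantile normalization the signals were 5.31 and 5.48 against 5.13 and 4.997, again without overlap, and the difference was -0.33 (standard error 0.10, adjusted p = 0.335). Both values are dim, under the array medians.
The A1 copies are near identical in sequence, and 3 further probe sets name Bcl2a1a, Bcl2a1b, Bcl2a1c and Bcl2a1d together, 4 genes each, and are no members. Their differences were -0.28, -0.23 and -0.18 as deposited, and none was past the limits. After normalization they were at -0.11, -0.03 and 0.03. All 3 differences were smaller in size than that of Bcl2a1c in both forms.

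Bcl2l2, which encodes the anti-apoptotic Bcl-w of adult neurons, had 7.96 and 7.91 on the controls, against 7.61 and 7.64 on the ethanol arrays. Its replicates lay within 0.05 of each other in either group. The difference was -0.31 (standard error 0.08, adjusted p = 0.176) and -0.15 after normalization, where the groups were still apart but short of the limits.
Fadd, the adaptor that links death receptors to Casp8, had 6.11 and 6.18 on the controls, against 5.83 and 5.80 on the ethanol arrays. The difference was -0.33 (standard error 0.09, adjusted p = 0.174) as deposited and -0.14 after normalization. The normalized groups were apart by little, with 5.97 on control 1 and 5.96 on ethanol 2.
Endog, a mitochondrial nuclease that can cut nuclear DNA without caspases, had 6.35 and 6.20 on the controls, against 5.89 and 6.04 on the ethanol arrays. The lower control array was above the higher ethanol array by about the spread within a group. Its difference was -0.31 (standard error 0.11, adjusted p = 0.212) and -0.11 after normalization.
Casp4, the mouse caspase that senses bacterial lipopolysaccharide in the cytosol, had 5.31 and 5.16 on the controls, against 5.003 and 4.85 on the ethanol arrays. The groups were apart by as much as the replicates of a group (0.15 in each). Its difference was -0.30 (standard error 0.11, adjusted p = 0.213) and -0.15 after normalization.
Microglia are one source of Casp4, and 0 of 7 microglial markers were past the limits. The summed linear signal of these 7 ran from 1875 to 1899 on the control arrays and from 1727 to 1870 on the ethanol arrays. Aif1 was the dimmest of them, at 4.94 to 5.18, which is below the array medians. Their part in the Casp4 result was not tested.

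Casp9, the initiator caspase of the intrinsic pathway, had the largest upward difference of the members. Its deposited signals were 7.01 and 6.59 on control 1 and control 3, and 7.32 and 6.99 on ethanol 2 and ethanol 4. The groups overlapped, since ethanol 4 lay just below control 1. The difference was 0.35 (standard error 0.20, adjusted p = 0.330) as deposited, not past the limits. After normalization the signals were 6.86 and 6.53 against 7.41 and 7.07, the groups were apart, and the difference was 0.55 (standard error 0.18, 1.46-fold higher, adjusted p = 0.336). Replicates differed by 0.43 among controls and by 0.32 among ethanol arrays as deposited. Bak1 was the only member with a wider gap between replicates.
Hrk, a BH3-only gene induced in neurons that lose trophic support, had 7.71 and 7.59 on the controls, against 7.91 and 7.76 on the ethanol arrays. Both ethanol arrays were above both controls in each form. The difference was 0.19 (standard error 0.10, adjusted p = 0.332) and 0.35 after normalization (standard error 0.09, 1.27-fold higher, adjusted p = 0.298).
Diablo, whose protein leaves mitochondria and blocks inhibitor of apoptosis proteins, had 7.33 and 7.09 on the controls, against 7.34 and 7.32 on the ethanol arrays. As deposited control 1 lay among the ethanol arrays. The difference was 0.12 (standard error 0.11, adjusted p = 0.528), and 0.31 after normalization (standard error 0.09, adjusted p = 0.311) with the groups apart.
Casp6, an executioner caspase also studied in axon pruning, had 6.11 and 6.03 on the controls, against 6.16 and 6.12 on the ethanol arrays. The difference was 0.07 (standard error 0.09, adjusted p = 0.645), and 0.27 after normalization (standard error 0.08, adjusted p = 0.335), just past the fold limit.

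Most calls for single genes changed when 1 array was left out, in fits with 1 residual degree of freedom. A call could be lost with little change in the difference, as for Bcl2l2, or with a smaller difference, as for Endog. Without control 1 and without ethanol 2, Bcl2l2 was at -0.29 and -0.30, against -0.31 with all 4 arrays. Endog was at -0.23 in both, against -0.31. As deposited, Bcl2a1c stayed past the limits without any 1 of the arrays, and Casp9 passed them without control 1 (0.57). Without control 1 the lower members were Fadd and Bcl2a1c, without ethanol 2 Bcl2a1c alone, without ethanol 4 Bcl2a1c and Bcl2l11, and without control 3 they were 6, among them Bbc3 and Bcl2l15. After quantile normalization of the remaining 3 arrays, the higher members were Casp9, Hrk and Diablo without control 1, Casp6, Casp9 and Hrk without ethanol 4, Bcl2l12 alone without control 3, and none without ethanol 2. The arrays without ethanol 2, which was the one low in Gh, Prl and Cga, thus hold 0 higher members in that form, where 5.09% of all probe sets were higher. In that form Bcl2a1c was past the limits and lower without control 1 or without ethanol 2, and not without the other arrays.

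**Figure D2:**
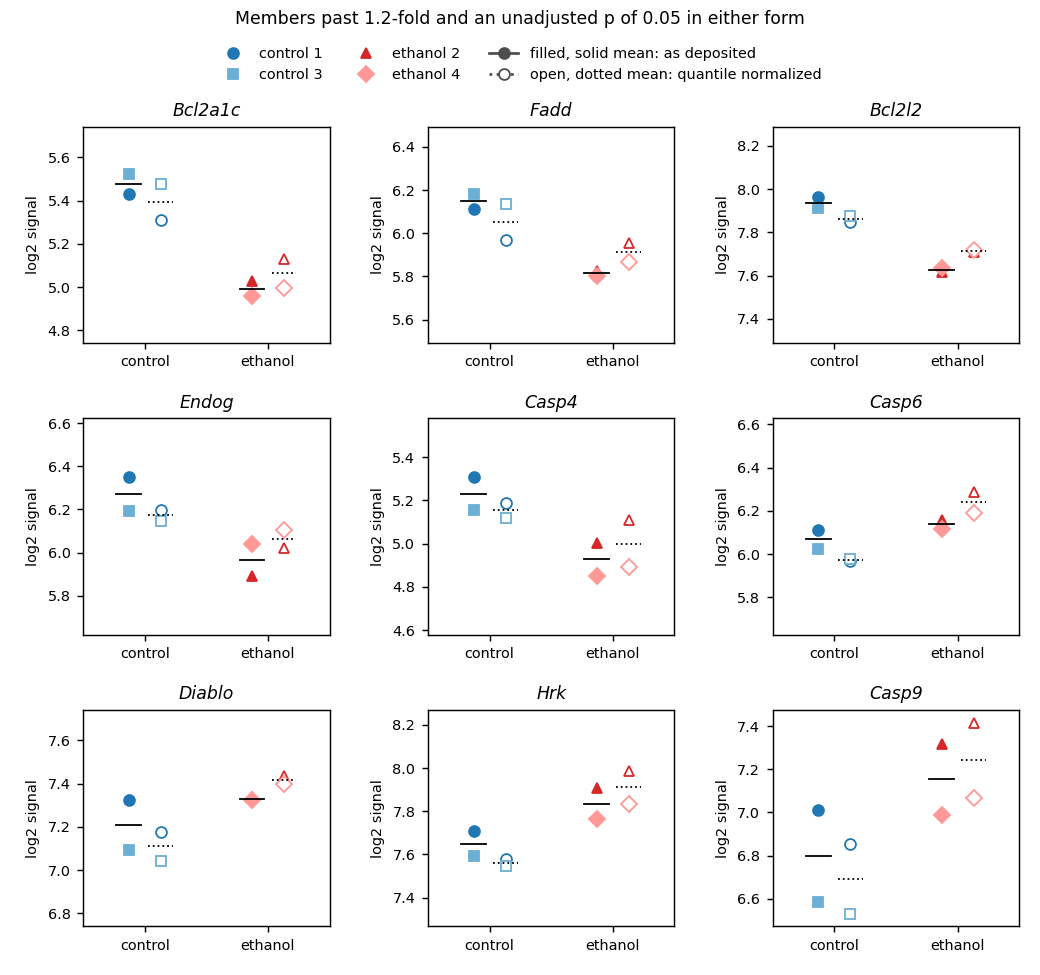
Log2 signals of the 9 members past 1.2-fold and an unadjusted p of 0.05 in either form of the data, for control and ethanol arrays. Filled symbols with solid mean lines are the deposited values, open symbols with dotted mean lines are those after quantile normalization, each panel spans 1 log2 unit, and no error bar is drawn because each group has 2 arrays. Bcl2a1c is lower on both ethanol arrays in each form, and the deposited groups of Casp9 and Diablo overlap while their normalized groups do not.

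Promoter sequence differed between these genes, as a property of the genome that the arrays did not measure. Of the 43 genes, 39 matched a promoter in RefSeq (GRCm38.p6), taken as the 250 bases before the start listed first. The windows held a median of 13 CpG dinucleotides (range 0 to 42), beside 6 over all 27018 promoters. The 5 genes that were lower as deposited held a median of 9 (3 to 19), and the 4 that were higher after normalization 23 (11 to 30). The GC box GGGCGG was found on either strand in 23 of the 39 and in 32.9% of all promoters, and TATAAA in 1 of the 39, that of Bcl2l12, and in 13.0% of all. The windows of the member that was lower in both forms (Bcl2a1c, chr9:114329885-114330134, plus strand) and of the member with the largest upward difference (Casp9, chr4:141793362-141793611, plus strand) are shown as examples of a CpG-poorer and a CpG-richer promoter among the genes past the limits, with 6 and 25 CpGs. Capitals mark the CpG dinucleotides.
Bcl2a1c: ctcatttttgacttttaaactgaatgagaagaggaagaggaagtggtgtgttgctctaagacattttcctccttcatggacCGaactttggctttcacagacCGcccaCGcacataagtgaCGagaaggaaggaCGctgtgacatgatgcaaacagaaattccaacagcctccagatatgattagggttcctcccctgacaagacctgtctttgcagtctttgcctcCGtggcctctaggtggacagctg
Casp9: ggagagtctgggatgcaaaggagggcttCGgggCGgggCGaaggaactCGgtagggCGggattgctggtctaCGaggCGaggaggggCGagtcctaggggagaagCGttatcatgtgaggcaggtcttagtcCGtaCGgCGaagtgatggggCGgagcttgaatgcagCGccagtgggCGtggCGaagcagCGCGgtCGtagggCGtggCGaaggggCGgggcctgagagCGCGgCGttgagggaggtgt
Both windows hold a GC box and neither holds TATAAA.

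The remaining anti-apoptotic genes showed no call. Bcl2, the founding member, had 9.92 and 9.61 on the controls, against 9.62 and 9.70 on the ethanol arrays, so that the ethanol pools lay inside the control range. Its difference was -0.11 (95% interval -0.46 to 0.24) and -0.01 after normalization (95% interval -0.32 to 0.31). Bcl2l1, which encodes Bcl-xL, the main survival protein of mature neurons, had 8.48 and 8.41 against 8.25 and 8.28.
Bcl2l1 was lower on both ethanol arrays in both forms, by -0.18 (95% interval -0.41 to 0.05) and by -0.04 after normalization (95% interval -0.25 to 0.16), so that a fall of 1.2-fold lies inside the deposited interval and outside the normalized one. Mcl1, a short-lived survival protein, had 9.07 and 8.87 against 9.04 and 8.97. Its difference was 0.04 (95% interval -0.24 to 0.32) and 0.17 after normalization (95% interval -0.08 to 0.41). Bcl2l10 was at 0.01, near the lower end of the arrays (4.43 to 4.70). Of the 6 anti-apoptotic members, 2 passed the limits as lower in the deposited form, where 17.9% of all probe sets did. The median of the 6 was -0.14, against -0.15 for all probe sets.

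No effector passed the limits in either form, and Hrk was the only BH3-only gene to do so. Bak1, which forms pores in the mitochondrial outer membrane, had the widest replicate spread of all members, with 6.89 and 6.42 on the controls, against 6.24 and 6.78 on the ethanol arrays. Its difference was -0.15 (95% interval -0.82 to 0.52) and 0.06 after normalization, and the groups overlapped in both forms, with the widest interval of the core genes. Bok, a relative of the effectors, had signals of 6.80 to 6.90 on all 4 arrays and a difference of -0.02 (0.19 after normalization).
Bcl2l11, which encodes Bim, a BH3-only trigger of neuronal death, had 5.86 and 5.94 on the controls, against 5.48 and 5.76 on the ethanol arrays. Its groups were apart as deposited (-0.28, 95% interval -0.62 to 0.05) and overlapped after normalization (-0.10, 95% interval -0.42 to 0.22). Bbc3, the p53 target Puma, differed by -0.27 and by -0.12 after normalization, and Bmf by -0.18 and 0.03. Bad, Bid, Bik and Pmaip1, at -0.08 to 0.00 as deposited, were at 0.11 to 0.14 after normalization. Of the 8 BH3-only members, 0 were past the limits as deposited, where 17.9% of all probe sets were lower and 2.23% higher. After normalization 1, Hrk, was past them, where 5.71% of all were higher. The median of the 8 was -0.06 as deposited and then 0.13. Signals of 6 of the 8 were below 6.1 on every array, where Hrk and Bmf were brighter.

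The other genes named for Bcl2 gave no call. Bcl2l15 was lower on both ethanol arrays in both forms (-0.32, then -0.17), with 5.43 on control 1 and 5.06 on control 3, and Bcl2l12 was at 0.06 and then 0.25, just short of the limits after normalization (unadjusted p = 0.0512). Bcl2l13, a mitochondrial protein that takes part in mitophagy, was at -0.03 and 0.10, and Bcl2l14 at -0.12 and 0.02.

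Among the mitochondrial factors, no probe set of cytochrome c was past the limits in either form. The probe sets of Cycs that carry most signal had 12.30 and 12.53 on control 1, 12.12 and 12.42 on control 3, 12.39 and 12.67 on ethanol 2, and 12.15 and 12.37 on ethanol 4. Their differences were 0.06 (95% interval -0.28 to 0.40) and 0.04 (95% interval -0.31 to 0.40), and 0.11 and 0.07 after normalization. A change of 1.2-fold in either direction lies inside both deposited intervals. Both probe sets are annotated to the same transcripts, and cytochrome c has many processed pseudogenes, so they may read shared targets. The third Cycs probe set was dim (5.01 to 5.41), at -0.15 and 0.01.
Apaf1, the scaffold on which Casp9 is activated, had 7.21 and 7.03 against 6.95 and 7.03, a difference of -0.13 (95% interval -0.41 to 0.15) and 0.07 after normalization. Aifm1, a mitochondrial oxidoreductase that can act in caspase-independent death, was at -0.09 and 0.05, and the protease gene Htra2 at -0.16 and -0.03. Of the 8 probe sets of this role, Endog was past the limits as deposited and Diablo after normalization.

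The remaining caspases were not past the limits. Casp8, the initiator of the death receptor pathway, had 6.69 and 7.02 on the controls, against 6.71 and 6.68 on the ethanol arrays, and control 3 alone stood out. The difference was -0.16 (95% interval -0.52 to 0.20) and 0.04 after normalization (95% interval -0.40 to 0.48). Casp2, an initiator that is abundant in brain, had signals from 7.91 to 8.05 and was at -0.09 and 0.05.
Casp1, which processes interleukin-1, was at -0.20 and -0.03. Casp12, which lies at the endoplasmic reticulum, was at -0.05 and 0.13, and Casp14, known from the epidermis, was dim at 4.90 to 5.05 and differed by -0.01 and 0.13. Casp8ap2, which is selected by its name but encodes a histone transcript processing factor that binds Casp8, was at -0.03 and 0.15.

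None of the 7 probe sets of the inhibitors of apoptosis was past the limits in either form. Xiap, the direct inhibitor of Casp9 and the executioners, had 8.89 and 8.50 on the controls, against 8.67 and 8.63 on the ethanol arrays, which lay between the controls. Its difference was -0.04 (95% interval -0.45 to 0.36) and 0.08 after normalization (95% interval -0.27 to 0.44). Birc6, a very large ubiquitin ligase of this family, had signals of 10.01 to 10.29 and was at 0.09 and 0.17. Birc2 and Birc3, which control ubiquitination in tumour necrosis factor signalling, were at -0.14, -0.06 and -0.05 over their 3 probe sets as deposited and at 0.05, 0.11 and 0.16 after normalization. Birc5, a mitotic gene, was at -0.05 and 0.08, and Birc7 at 0.09 and 0.22. All 7 were above 0 after normalization.
Fas, the death receptor, had 5.34 and 5.33 on the controls, against 5.21 and 5.48 on the ethanol arrays. The ethanol arrays lay on either side of the controls, with a difference of 0.01 (95% interval -0.31 to 0.33) and 0.17 after normalization.

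**Figure D3:**
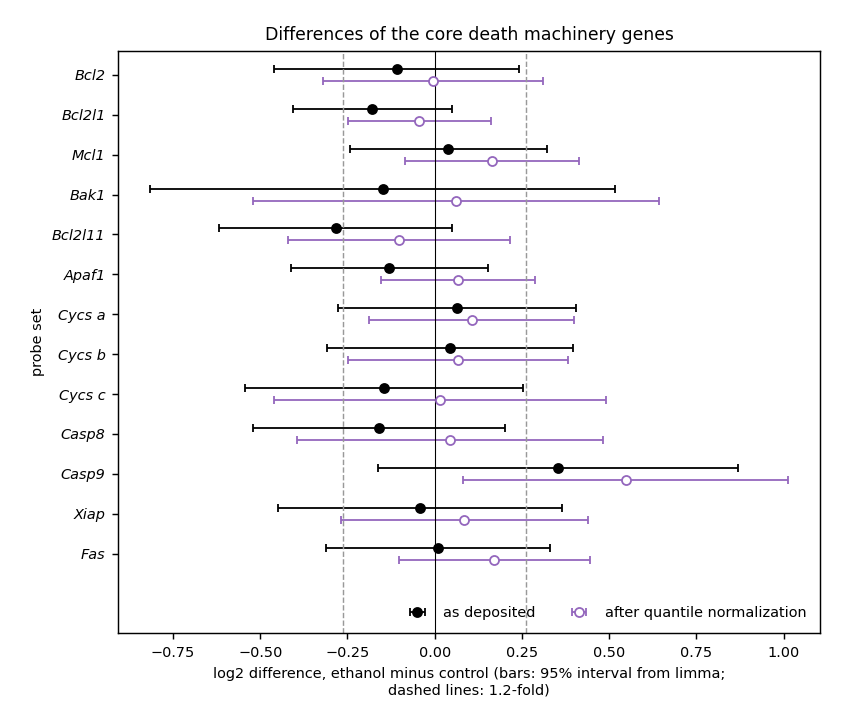
Log2 difference (ethanol minus control, n = 2 arrays per group) of 13 probe sets of the core death machinery, shown whatever their values, as deposited (black) and after quantile normalization (purple, open). Bars are 95% intervals from limma and dashed lines mark 1.2-fold. The interval leaves out 0 for Casp9 after normalization only. For Bak1 and Xiap it spans 1.2-fold in both directions in each form. It also does so for Fas, Cycs a and Cycs b as deposited, and for Bcl2, Casp8 and Cycs c after normalization.

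As a group, the members lay slightly above the bulk of the arrays in both forms. Their median difference was -0.05 as deposited, beside -0.15 over all probe sets and -0.14 over those that name 1 gene. After quantile normalization it was 0.08, beside 0.00 for all. The members' median was therefore 0.09 above that of all probe sets in either form. On each array the median member signal lay below the array's median, by -0.16 on control 1, -0.22 on control 3 and -0.13 on both ethanol arrays. The control arrays differed from each other in this measure by about as much as the mean of the ethanol arrays did from that of the controls.
As deposited 71.7% of the members were below 0, beside 80.2% of all probe sets, and after normalization 73.9% were above 0, beside 49.0%. In 12 members the difference was below 0 in both forms, in 13 it was above 0 in both, and in 21 it went from below to above. Over all 35556 probe sets these counts were 18102, 7025 and 10412. In 33 of the 46 the deposited difference was no larger than the wider of the replicate gaps, and in 27 after normalization. The same held for 19130 of all 35556 probe sets as deposited and for 22957 after normalization. The median size of a difference was 0.09 as deposited and 0.12 after normalization, beside 0.17 and 0.12 for all probe sets.

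The ethanol arrays were both below both control arrays in 15 members (32.6%), where 52.7% of all probe sets were so, and both above in 3 (Hrk, Casp6 and Birc7, 6.52%), where 7.25% were so. After quantile normalization 7 members were apart and lower (15.2%, beside 24.9% of all), and 18 were apart and higher (39.1%, beside 24.0%). The 18 hold 4 of the 8 BH3-only genes, 3 of the 5 inflammatory and other caspases and 3 of the 7 inhibitor probe sets. Genes that promote death and genes that block it are both among them.
The deposited offset between the groups depended on signal, and members followed it in part. Of the 21 members with a mean log2 signal under 6, 16 were lower on the ethanol arrays, beside 83.8% of all probe sets at that level. From 6 to 8 it was 10 of 14, beside 79.1%, and at 8 or more 7 of 11, beside 76.2%. After normalization 14, 12 and 8 of these were above 0, beside 52.5%, 51.1% and 42.2%.

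**Figure D4:**
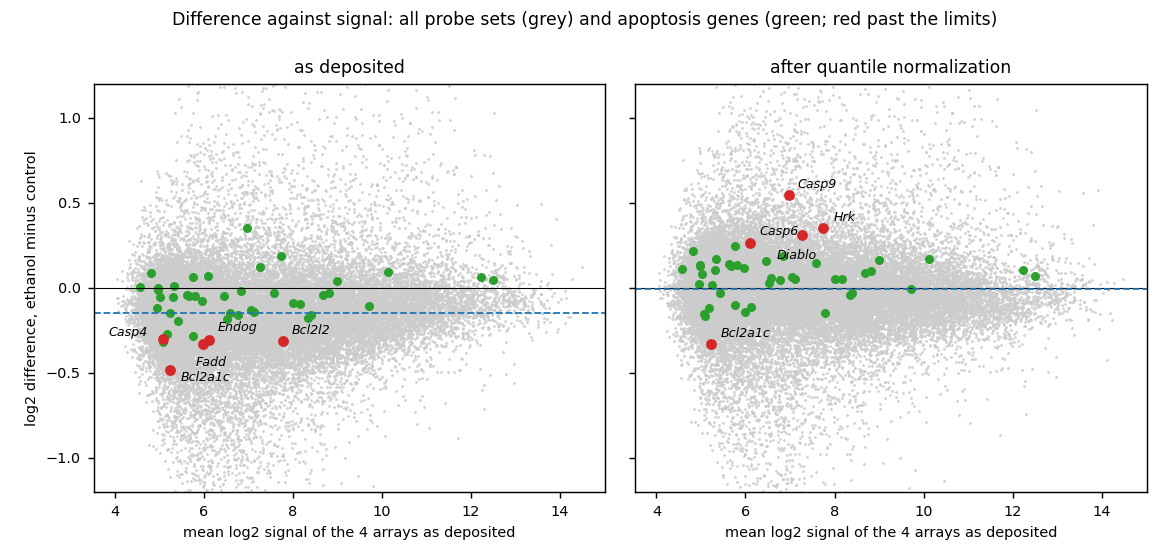
Log2 difference (ethanol minus control) against the mean log2 signal of the 4 arrays, as deposited (left) and after quantile normalization (right). Grey points are all 35556 probe sets (those beyond 1.2 in size are outside the frame), green points are the 46 members, red points are the members past the limits, and the dashed blue line is the median of all probe sets, at -0.15 and 0.00; most green points lie above that line in both panels.

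Of 82 listed genes that are no members, 77 have a probe set of their own. As deposited the limits called 9 of these lower and 0 higher, with a median of -0.15, and after normalization 2 were lower and 1 higher, with a median of -0.02. Over all probe sets the limits called 17.9% lower and 2.23% higher as deposited, and 5.87% and 5.71% after normalization. None of the 15 death receptor signalling genes (such as Ripk3, Cflar and Tradd) and none of the 16 mitochondrial death relatives was past the limits in either form. Of 15 regulators and targets of p53, Mdm2 (-0.31), Zmat3 (-0.32) and Aen (-0.33) passed the limits as lower before normalization and not after it (-0.19, -0.19 and -0.12).
Past the limits and lower in both forms were Naip2 and Jun. Naip2, an inflammasome receptor related to the inhibitors of apoptosis, had 6.42 and 6.08 on the controls, against 5.72 and 5.79 on the ethanol arrays, a difference of -0.50 (standard error 0.14, adjusted p = 0.182) and -0.30 after normalization. Jun, the stress-responsive transcription factor that acts upstream of Hrk and Bcl2l11 in neurons, had 9.29 and 9.19 against 8.93 and 8.75, a difference of -0.40 (standard error 0.11, adjusted p = 0.175) and -0.28 after normalization.

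Markers of the cell types in the tissue were checked alongside. As deposited, 0 of 8 neuronal, 0 of 6 astrocytic and 0 of 7 microglial markers were past the limits. Lower were 1 of 5 oligodendrocyte markers (Cnp), 2 of 5 endothelial, 1 of 5 choroid plexus, 1 of 6 pituitary and 1 of 4 proliferation markers, and none was higher, where the limits called 17.9% of all probe sets lower. The 1 blood marker measured was not past the limits. After normalization Cnp and the pituitary marker Pomc were still past the limits and lower. Gh, Prl and Cga, low on ethanol 2, were not past them. The part of these markers in the differences of the apoptosis genes was not tested.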

How the data were processed

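Expression was measured on 4 Affymetrix Mouse Gene 1.0 ST arrays. Per the study's methods, the authors used Partek software for RMA with GC adjustment and quantile normalization, and deposited gene-level log2 values (version 6.6 per the submitters' notes, another in the methods). Medians of the deposited arrays differ, so values were used as deposited and after quantile normalization. Precision is limited by having 2 arrays per group. P-values measure the spread between these pools only, which may in part be technical.

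Genes come from the platform annotation, in which 21797 probe sets name 1 gene, 1613 several and 12146 none. All 46 members matched a RefSeq gene by Entrez ID, and 0 symbols changed. The annotation names no build, so no coordinates are given from it. Those of the 2 printed promoter windows are from RefSeq (GRCm38.p6). All 35556 probe sets were fitted with limma (3.58.1, R 4.3.3), with 2 residual and 2.57 prior degrees of freedom, and Benjamini-Hochberg adjustment over all of them. No filter was applied. Lists take the brightest probe set naming a gene alone. The procedure was tested on simulated data without an offset between arrays, so that test does not cover the offset seen here.

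Members, roles and lists were chosen with earlier results of these data known. Named with full values are members past the limits in either form and a set of core genes. Other members are given by role. Other pathway genes are named if past the limits in both forms, at most 3 a list. Ripk3, Cflar, Tradd, Mdm2, Zmat3, Aen, the A1 probe sets and marker genes were named after their values were seen. Alternatives were the treatment entry, 1 array a group, an intensity trend, other normalizations, leaving out probe sets with a mean log2 under 5, the methods' test, each array left out, both litter matchings, a 1.5-fold limit and 1 probe set a gene. Combinations with quantile normalization were added after the data were seen.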

Additional observations from a re-analysis of the deposited data

How the results depend on the processing

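With 2 arrays per group, no member passed an adjusted p of 0.05 in limma under any alternative run, and normalization decided most calls. Quantile normalization gave 4 higher and 1 lower members with a median difference of 0.085, and centring each array on its median gave 6 higher, 0 lower and 0.16, against 0 higher, 5 lower and -0.05 as deposited. Centring called 9.09% of all probe sets higher and 3.91% lower. The methods' test left 3 lower (8.11% of all probe sets), and a 1.5-fold limit 0 (3.63% of all). Grouping by the treatment entry left 0 lower, also after quantile normalization, and the members' median relative to all probe sets was then 0.0043. Casp4 turned to 0.15 in both forms, and Bcl2l2 and Endog turned to 0.014 and 0.0039 as deposited. With only control 3 and ethanol 2, no test could be made, and the relative median was 0.037 in place of 0.09. Leaving out 1 array gave 0 to 1 higher and 1 to 6 lower members, medians of -0.10 to -0.06 and relative medians of 0.057 to 0.084, and with quantile normalization 0 to 3 higher and 0 to 1 lower. Over all probe sets these fits called 2.01% to 2.73% higher and 9.80% to 18.2% lower, and with quantile normalization 4.64% to 5.76% higher and 4.52% to 6.39% lower. The lone array of a group is then assumed to vary like the others. A minimum signal and an intensity trend kept both counts within 1.5 times. The cause of these shifts was not tested.

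The labels do not say which pools share litters. A replicate block that pairs control 1 with ethanol 2 gave 1 higher (Casp9) and 4 lower members, and the other pairing gave 0 and 4. Over all probe sets the limits called 2.75% and 2.34% higher, and 17.0% and 16.7% lower. With quantile normalization, the first block gave 4 higher and 0 lower and the other 2 higher and 1 lower. Over all probe sets the first then called 6.46% higher and 6.93% lower, and the other 5.44% and 5.51%.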
